A study of Mus musculus with 29 samples.

Results

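Livers taken 7 days after bile duct ligation (BDL) were compared with livers taken 3 days after it, 5 arrays against 5, out of 29 arrays in the series. The arrays were chosen by title alone, as the 7-day BDL and the 3-day BDL arrays, so no expression value entered the choice. All animals were male C57BL/6N mice aged 8 to 10 weeks on a standard diet given freely before and after surgery. In the BDL groups the extrahepatic common bile duct was tied; in the sham groups the mice were operated on without ligation. Sham livers of day 7 (4 arrays) and day 3 (2 arrays) served as the background of elapsed time. BDL livers of days 1 and 21 (5 arrays each) and sham livers of day 1 (3 arrays) entered the fit for the spread, and a few of their means are given. Every title carries its own number and the letters wt, read here as 1 animal per array, and no label names a batch. The title numbers of BDL day 3 replicates 1 and 2 lie within the range of the BDL day 7 numbers. Those of BDL day 3 replicates 3 to 5 lie above it, and the part of this order in the values was not tested. Ligation is a model of complete obstruction, and whole tissue was measured, so fewer cells of a type and less RNA per cell cannot be told apart in any value below.

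Bile acids are made from cholesterol in hepatocytes, and Cyp7a1 and Cyp8b1 encode the enzymes that set the amount and the kind of acid made. When bile cannot leave, bile acids act on the nuclear receptor FXR (Nr1h4), which induces the repressor SHP (Nr0b2). Dying hepatocytes and leaked bile draw in neutrophils and monocytes, duct cells multiply, and stellate cells lay down collagen. Days 3 and 7 lie between the first injury and the established scar of this model.

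Between these days 837 of 14699 genes tested differed at an adjusted p under 0.05 in limma, which is 5.69% of genes. A gene was tested if its log2 value exceeded 5 in at least 3 arrays, and a group mean under 5 was taken as not told apart from background. Of the 837 genes, 676 were higher (4.6%) and 161 lower (1.1%) at day 7. At least 2-fold differences numbered 114 higher and 28 lower. In 1101 genes (7.49%) the 5 and 5 arrays did not overlap, higher in 840 (5.71%) and lower in 261 (1.78%), and 583 genes (3.97%) both passed and did not overlap. The median difference over all genes tested was 0.03. Bile acid synthesis, pericentral hepatocyte genes, interferon-stimulated genes, MHC class II genes and macrophage and matrix genes held members that rose, while cholesterol synthesis and female-biased genes held members that fell. The split between directions depended on scaling: 583 higher and 281 lower after cyclic loess, and 440 higher and 338 lower after centring each array on its median. The count itself was 472 without BDL day 7 replicate 5, 479 without BDL day 3 replicate 5 and 556 without BDL day 7 replicate 3. In sham livers over the same days 0 genes passed in limma (0%), with 627 at an unadjusted p under 0.05; 35 passed without sham day 3 replicate 1 and 5 without sham day 3 replicate 2. The median SE of a log2 difference was 0.130 for ligated livers and 0.179 for sham livers, where fewer arrays limit the precision.

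**Figure D1:**
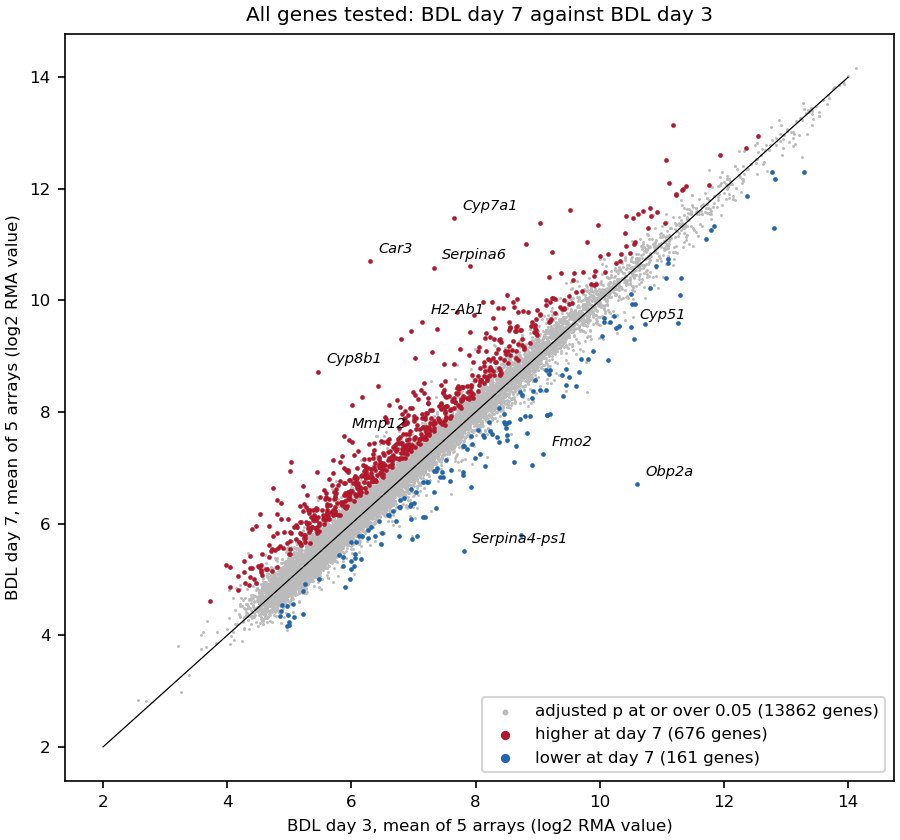
Mean log2 value of each gene tested in the 5 BDL day 7 arrays (vertical axis) against the 5 BDL day 3 arrays (horizontal axis); colours mark genes past the adjusted p of 0.05 and the line marks equal values. Cyp7a1, Car3, Cyp8b1 and Serpina6 lie farthest above the line and Obp2a farthest below it.

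The sequences that follow are promoter windows, from 250 bases before to 50 after a gene's start, of 4 genes from the groups with the largest shares of rising members. Isg15 and Bst2 stand for the interferon-stimulated genes; the capitals mark the response element core, which is GAAA, any 2 bases and GAAA, and whose matches overlap, with 3 in Isg15 and 2 in Bst2. H2-Aa and H2-Eb1 stand for MHC class II; the capitals mark the Y box CTGATTGG. The windows are from RefSeq, build GRCm38.p6, and run 5′ to 3′ along the gene: Isg15 at chr4:156200769-156201068 on the minus strand, Bst2 at chr8:71537423-71537722 on the minus strand, H2-Aa at chr17:34287774-34288073 on the minus strand and H2-Eb1 at chr17:34305617-34305916 on the plus strand.
Isg15: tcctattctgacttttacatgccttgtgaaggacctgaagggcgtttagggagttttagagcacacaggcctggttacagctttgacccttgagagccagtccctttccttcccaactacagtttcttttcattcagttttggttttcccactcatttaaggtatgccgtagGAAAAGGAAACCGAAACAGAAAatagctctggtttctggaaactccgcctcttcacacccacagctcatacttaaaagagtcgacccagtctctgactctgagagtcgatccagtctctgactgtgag
Bst2: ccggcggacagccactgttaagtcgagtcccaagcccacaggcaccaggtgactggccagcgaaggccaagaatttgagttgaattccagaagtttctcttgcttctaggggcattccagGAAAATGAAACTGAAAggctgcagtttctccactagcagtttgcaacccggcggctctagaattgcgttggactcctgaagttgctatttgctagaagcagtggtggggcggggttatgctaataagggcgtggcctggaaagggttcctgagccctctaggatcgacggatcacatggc
H2-Aa: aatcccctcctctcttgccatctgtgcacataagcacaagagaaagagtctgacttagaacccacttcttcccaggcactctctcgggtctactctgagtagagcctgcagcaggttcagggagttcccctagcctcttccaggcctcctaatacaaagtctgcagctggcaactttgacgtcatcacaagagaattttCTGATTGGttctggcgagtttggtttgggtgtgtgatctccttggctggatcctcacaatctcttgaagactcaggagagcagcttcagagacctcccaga
H2-Eb1: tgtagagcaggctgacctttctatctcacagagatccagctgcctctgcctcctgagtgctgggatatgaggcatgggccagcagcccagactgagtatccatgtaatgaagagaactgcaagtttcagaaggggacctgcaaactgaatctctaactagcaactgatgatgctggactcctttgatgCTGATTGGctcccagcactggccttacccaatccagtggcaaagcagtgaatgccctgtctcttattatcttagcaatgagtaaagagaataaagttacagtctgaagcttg
Searched on both strands, the response element core was found in 12 of the 18 interferon-stimulated genes that had a window, against 3.99% of all 27025 genes with one. The Y box was found in 3 of the 5 MHC class II genes with a window, against 4.7% of all genes. The sterol regulatory element TCACNCCAC was found in 1 of 15 cholesterol synthesis genes, against 1.44% of all genes. These motifs were chosen after the results were known, and a match is a description of the letters, not of binding.

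The tissue label was checked against markers. Alb, the main secreted protein of hepatocytes, was at a log2 value of 14.17 ± 0.03 in BDL day 7 livers and 14.13 ± 0.01 in BDL day 3 livers (SD, n = 5 each). The array medians lay between 5.51 and 5.54 in BDL day 7 livers and between 5.47 and 5.50 in BDL day 3 livers. Among markers of tissue that could be cut along with liver, none of 5 exocrine pancreas, 7 adipocyte, 8 mesothelial and 3 erythroid genes tested passed. The mean log2 value over the adipocyte genes was 6.31 to 6.47 in BDL day 7 livers and 6.42 to 7.28 in BDL day 3 livers, the highest being day 3 replicate 5. Sham day 7 replicate 1 stood apart, with a mean over 21 collagen genes of 7.17 against 6.12 to 6.36 in the other 3 arrays of its group. On the first principal component of the 10 ligated livers (39.1% of the variance) BDL day 7 arrays scored 12.5 to 21.3. BDL day 3 replicates 1 to 5 scored -14.4, -1.09, -19.9, -15.5 and -33.9. The second component (14.6% of the variance) set BDL day 3 replicates 1 and 2 apart, at -17.7 and -23.6. All other ligated livers scored between -2.61 and 13.2 on it. The cause of this split within the BDL day 3 group was not tested. The most variable genes were more numerous at day 3: 9 genes had an SD above 1 among the BDL day 7 arrays and 45 among the BDL day 3 arrays. The median SD over genes was close, at 0.162 in BDL day 7 and 0.174 in BDL day 3 livers.

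Bile acid synthesis showed 2 of the largest rises in the comparison. Cyp7a1, which starts the classical route and limits its rate, had log2 values of 11.36, 11.51, 11.80, 11.63 and 11.06 in BDL day 7 livers, against 10.99, 10.08, 5.74, 6.84 and 4.62 in BDL day 3 livers. The groups did not overlap, but day 3 replicates 1 and 2 stood close to the day 7 values and the other 3 far below them. The difference was 3.82 ± 0.75 (SE), or 14.1-fold, with an adjusted p of 0.00207 in limma, and ran between 3.06 and 4.65 when single arrays were left out. The SE rests on 1 spread shared by all groups, while the day 3 arrays differed far more than the day 7 arrays. In the 9 alternatives that left out no single array the adjusted p in limma was up to 0.0325. Cyp8b1, the hydroxylase needed for cholic acid, had 9.03, 8.34, 9.36, 9.13 and 7.78 in BDL day 7 livers, against 7.30, 5.06, 4.34, 4.84 and 5.80 in BDL day 3 livers. No array overlapped, and day 3 replicate 1 was again the highest of its group. The difference was 3.26 ± 0.36 (9.58-fold, adjusted p = 7.65e-06).

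Set beside sham livers of the same day, the enzymes differed, which was not tested. Cyp7a1 averaged 11.47 ± 0.28 in BDL day 7 livers (SD, n = 5) and 9.81 to 10.87 over the 4 sham day 7 arrays. Cyp8b1 averaged 8.73 ± 0.65 in BDL day 7 livers (SD, n = 5), while its sham day 7 arrays lay between 9.65 and 10.75. Over days 1, 3, 7 and 21 the mean of BDL livers was 4.29, 7.65, 11.47 and 10.45 for Cyp7a1 and 5.16, 5.47, 8.73 and 7.33 for Cyp8b1.

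The other 14 synthesis genes tested did not pass, and the median difference over the list was 0.15, against 0.03 over all genes tested. Akr1c6 had a difference of 1.16 ± 0.42 (adjusted p = 0.105) and Cyp7b1, the oxysterol hydroxylase of the alternative pathway, one of 0.60 ± 0.25 (adjusted p = 0.165). Akr1c6 passed without BDL day 3 replicate 2.

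Nr0b2, the repressor that acts on both enzymes' genes, moved the other way. Its log2 values were 8.82, 7.99, 7.47, 8.58 and 8.57 in BDL day 7 livers, against 9.21, 9.24, 9.79, 9.27 and 9.56 in BDL day 3 livers. All day 7 arrays lay below all day 3 arrays, and the difference was -1.13 ± 0.33 (adjusted p = 0.037). Nr1h4, the bile acid receptor upstream of it, had a difference of 0.30 ± 0.11 and did not pass (adjusted p = 0.11). Among 18 hepatocyte transcription factors tested 1 rose (5.56%) and 3 fell (16.7%), against 4.6% and 1.1% of all genes. Cebpa, a factor of hepatocyte differentiation, rose by 0.70 ± 0.12 (adjusted p = 0.000893). Nr1i3 and Nr1i2, the receptors CAR and PXR that sense drugs, fell by 0.86 ± 0.26 and 0.45 ± 0.13 beside Nr0b2. The count of falls was 0 without any one of BDL day 7 replicates 2, 3 and 5 or BDL day 3 replicates 1, 3, 4 and 5, and 1 without BDL day 3 replicate 2.

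Transporters came next in the pathway. None of 8 uptake and 6 sinusoidal export carriers passed. Of 10 canalicular exporters 1 rose and 1 fell (10% each), against 4.6% and 1.1% of all genes. Slc10a1, the main uptake carrier NTCP, was at 11.31 ± 0.37 in BDL day 7 livers and 11.51 ± 0.28 in BDL day 3 livers (SD, n = 5 each). Abcb11, the bile salt export pump, was at 11.55 ± 0.16 in BDL day 7 livers and 11.46 ± 0.53 in BDL day 3 livers. The adjusted p was 0.674 for Slc10a1 and 0.882 for Abcb11. Abcc4, a sinusoidal export pump, had a difference of 0.39 ± 0.14 (adjusted p = 0.0954). Abcb1a, a drug export pump, fell by 0.92 ± 0.21 (adjusted p = 0.00882), with 7.16 to 7.64 in BDL day 7 livers and 7.89 to 8.70 in BDL day 3 livers. Slc47a1, an exporter of organic cations, rose by 0.70 ± 0.20 (adjusted p = 0.035), a call lost without any one of BDL day 7 replicates 1, 3, 4 and 5 or BDL day 3 replicates 3, 4 and 5 (adjusted p up to 0.139). That call was also lost under both other scalings and when only the 2 groups were fitted.

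**Figure D2:**
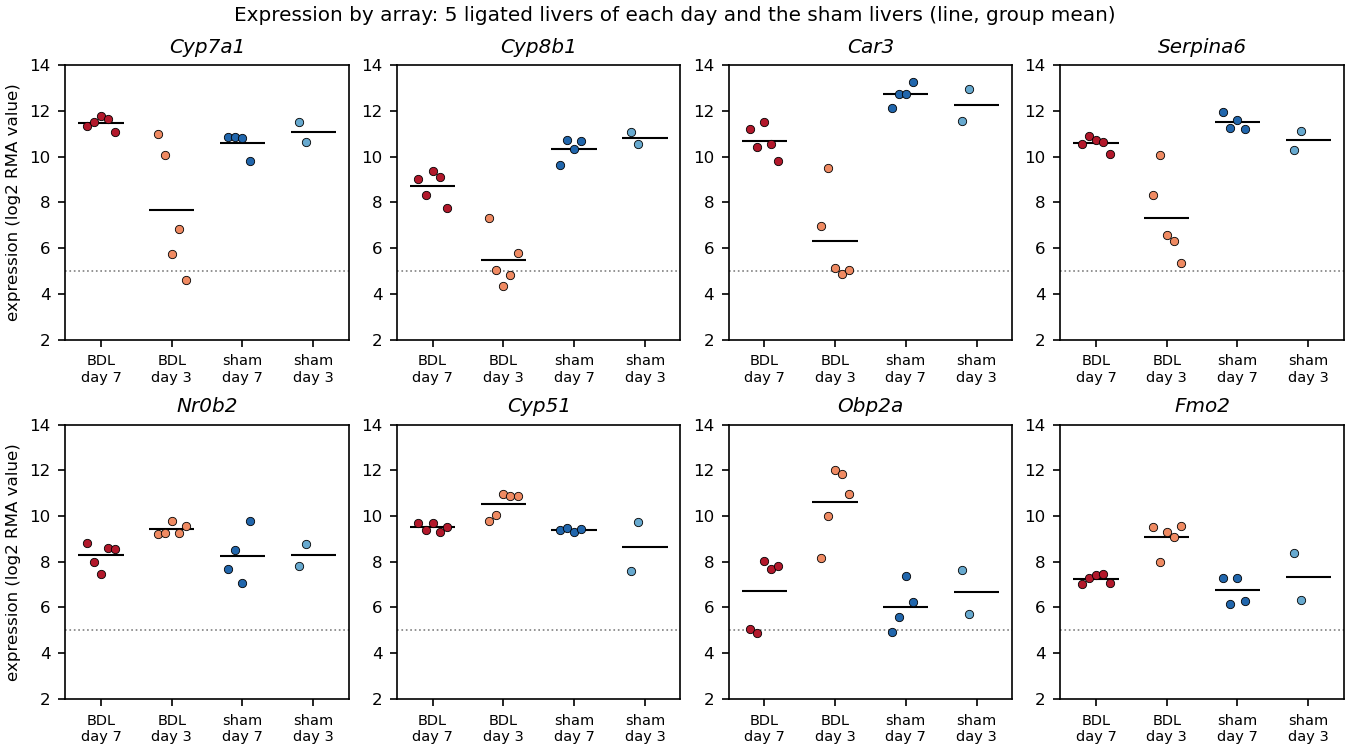
Log2 RMA value of 8 genes in each array of BDL day 7, BDL day 3, sham day 7 and sham day 3 livers, from left to right; black lines mark group means and the dotted line the filter level of 5. Cyp7a1, Cyp8b1, Car3 and Serpina6 are spread more widely at BDL day 3 than at BDL day 7, and Nr0b2, Cyp51, Obp2a and Fmo2 lie lower at BDL day 7.

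Among the largest rises were further genes known to be expressed by hepatocytes, named by the size of their difference and not as a list. Car3, a carbonic anhydrase abundant in pericentral hepatocytes, had 11.20, 10.42, 11.53, 10.55 and 9.81 in BDL day 7 livers, against 6.95, 9.52, 5.14, 4.85 and 5.04 in BDL day 3 livers. Day 3 replicate 2 came near the lowest day 7 array without reaching it. The difference of 4.40 ± 0.62 (21.1-fold, adjusted p = 0.000114) was the largest among all genes that passed. Serpina6, which encodes corticosteroid-binding globulin, had 10.56, 10.90, 10.73, 10.63 and 10.14 in BDL day 7 livers, against 8.31, 10.07, 6.59, 6.30 and 5.36 in BDL day 3 livers. Again day 3 replicates 1 and 2 were the highest of their group, and the difference was 3.27 ± 0.52 (adjusted p = 0.000446). The esterase Ces3a rose by 2.36 ± 0.36, the glucuronosyltransferase Ugt2b1 by 2.21 ± 0.37, the water channel Aqp8 by 2.10 ± 0.26 and the thyroxine-binding globulin Serpina7 by 2.09 ± 0.40. Of these 4, Serpina7 and Aqp8 stood above the sham day 7 arrays, with means of 9.79 and 8.28 in BDL day 7 livers against at most 9.02 and 7.77 in sham day 7 livers. The Ces, Ugt2b, Serpina, Cyp2c, Gstm, Gstp, Mup, Saa, Gbp, C4 and H2 families hold closely similar copies whose probes may share signal, so values of single members are uncertain.

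Pericentral hepatocyte genes, expressed around the central vein, rose in 9 of 19 tested (47.4%), against 4.6% of all genes. None fell, and the median difference was 0.67. Cyp1a2, a cytochrome P450 of drug oxidation, had 10.46, 10.54, 11.56, 9.93 and 10.58 in BDL day 7 livers, against 8.93, 10.42, 7.13, 7.50 and 5.53 in BDL day 3 livers. Day 3 replicate 2 overlapped the day 7 range and the other 4 lay below it. Its difference was 2.71 ± 0.50 (adjusted p = 0.00129, up to 0.0312 in the alternatives that left out no single array). Cyp2c54 rose by 1.96 ± 0.36 and Cyp2c50 by 1.72 ± 0.29, both without overlap of arrays, and Cyp2c29 by 2.10 ± 0.39. The last was 1.23 when the rows of the gene were averaged. The members that did not pass included Glul, glutamine synthetase, which differed by 0.67 ± 0.27 (adjusted p = 0.149), and Cyp2e1, by 0.09 ± 0.10 (adjusted p = 0.728). Without BDL day 3 replicate 2, Glul passed. The mean over the 19 genes was 9.94, 9.75, 9.84, 9.73 and 9.76 in BDL day 7 livers, against 9.23, 9.70, 8.74, 8.81 and 8.31 in BDL day 3 livers. The lowest day 7 array lay just above day 3 replicate 2. Sham day 7 replicate 1 was at 9.85, and the other sham day 7 arrays lay between 10.38 and 10.44. Of 16 periportal genes none passed, and their median difference was -0.01. G6pc, the last enzyme of gluconeogenesis, differed by 0.80 ± 0.56 (adjusted p = 0.481) and Otc, of the urea cycle, by 0.67 ± 0.25 (adjusted p = 0.122). Of 27 drug-metabolising cytochromes P450, which share members with the pericentral list, 8 rose (29.6%) and none fell, while the median was 0.09.

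Secreted proteins went both ways, with 2 of 26 higher and 2 lower (7.69% each), against 4.6% and 1.1% of all genes. Mbl2, a mannose-binding lectin of innate defence, rose by 1.76 ± 0.25 beside Serpina6. The clotting factor F11 fell by 0.77 ± 0.13 (adjusted p = 0.000676), with 9.45 to 9.64 in BDL day 7 livers and 10.04 to 10.56 in BDL day 3 livers. Kng1, kininogen, fell by 0.35 ± 0.10 (adjusted p = 0.0318), a call lost without any one of BDL day 7 replicates 1, 3, 4 and 5 or BDL day 3 replicates 1, 3, 4 and 5 (adjusted p up to 0.0927).

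Lipid genes were followed by pathway. In fatty acid oxidation 4 of 21 rose, with a median of 0.18. These were the peroxisomal thiolase Acaa1b (1.76 ± 0.28, adjusted p = 0.000374), the fatty acid carrier Fabp1 (1.24 ± 0.36), the peroxisomal enzyme Ehhadh (0.79 ± 0.22) and Acadm (0.34 ± 0.09), which was named after its values were seen. Fabp1 did not pass under either other scaling. The count was 1 without BDL day 3 replicate 3, 1 under median centring, and 2 without BDL day 7 replicate 1, 2 or 3 or BDL day 3 replicate 1. In fatty acid and lipid synthesis 4 of 21 rose, with a median of 0.32. Scd1, the desaturase that makes oleate, had 13.16, 13.24, 13.37, 12.94 and 13.03 in BDL day 7 livers, against 12.81, 12.23, 11.76, 10.05 and 9.06 in BDL day 3 livers. All day 7 arrays were higher and closer together, and the difference was 1.97 ± 0.43 (adjusted p = 0.00492). In the alternatives that left out no single array the adjusted p was up to 0.0497. The other 3 were the lipogenic regulator Pparg (0.71 ± 0.19), the malic enzyme Me1 (0.70 ± 0.16) and Dgat2 (0.36 ± 0.10), the last named after its values were seen. Leaving out BDL day 7 replicate 3 or 5 or BDL day 3 replicate 1 gave a count of 2.

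Cholesterol synthesis genes lay lower. Of 18 tested, 5 fell (27.8%, against 1.1% of all genes) and none rose. Of the 18 differences 17 were negative, with a median of -0.62. Cyp51, the sterol 14-demethylase, had 9.69, 9.37, 9.69, 9.30 and 9.54 in BDL day 7 livers, against 9.78, 10.04, 10.98, 10.86 and 10.88 in BDL day 3 livers. The groups did not overlap, and day 3 replicates 1 and 2 were the ones nearest to day 7. The difference was -0.99 ± 0.29 (adjusted p = 0.0393), and it passed in 2 of the 10 fits that left out 1 array, those without BDL day 3 replicate 1 or 2 (adjusted p up to 0.114). Hsd17b7 fell by 0.94 ± 0.23 and Nsdhl by 0.90 ± 0.23, both enzymes of the late steps. Tm7sf2 (-0.76 ± 0.11, adjusted p = 0.00021) and the mevalonate kinase Mvk (-0.78 ± 0.22) also fell and were named after their values were seen. Lss, lanosterol synthase, had a difference of -0.90 ± 0.29 (adjusted p = 0.0632). The count of 5 became 1 without BDL day 3 replicate 5, and 2 without BDL day 3 replicate 3 or BDL day 7 replicate 2. It was 3 without BDL day 7 replicate 3, 4 or 5 or BDL day 3 replicate 4. It was 8 after loess or centring. In sham livers the median of the same genes was 0.46, where the 2 sham day 3 arrays had list means of 8.32 and 9.63.

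Sex-biased genes of the liver, which follow the pattern of growth hormone secretion, also moved in these male mice. Of 8 female-biased genes tested out of 18 listed, 4 passed as lower (50%, against 1.1% of all genes) and none as higher. Their median was -1.09. The differences were negative in 6 and positive in 2, the largest positive one being 1.14, which did not pass. Sult1e1, the estrogen sulfotransferase, had 6.16, 6.90, 7.03, 7.13 and 8.01 in BDL day 7 livers, against 9.33, 7.19, 9.77, 8.93 and 9.35 in BDL day 3 livers. Day 3 replicate 2 overlapped the day 7 range, and the difference was -1.87 ± 0.42 (adjusted p = 0.0073). Fmo2, a flavin monooxygenase, had 7.02, 7.31, 7.42, 7.44 and 7.05 in BDL day 7 livers, against 9.52, 8.00, 9.29, 9.07 and 9.58 in BDL day 3 livers. Without any overlap, the difference was -1.84 ± 0.34 (adjusted p = 0.00152). Cux2, a transcription factor of female liver, fell by 1.27 ± 0.21 and Abcb1a was the fourth. Cyp17a1 differed by -1.45 ± 0.53 and did not pass (adjusted p = 0.11). The mean over the 8 genes was 6.91 to 7.23 in BDL day 7 livers and 7.63 to 8.00 in BDL day 3 livers, without overlap, and 6.00 to 6.86 in sham day 7 livers. Of 20 male-biased genes 2 rose (10%) and 1 fell (5%), against 4.6% and 1.1% of all genes. C6, the complement component, rose by 0.79 ± 0.17 and Gstp1, named after its values were seen, by 0.40 ± 0.12. Mup3, a major urinary protein, fell by 0.99 ± 0.17. The count of rises was 1 without BDL day 7 replicates 1, 2, 3 or 5 or BDL day 3 replicates 3, 4 or 5, and 4 without BDL day 3 replicate 2.

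Several of the largest falls belonged to no list. Obp2a, an odorant-binding protein, had 5.05, 4.90, 8.05, 7.70 and 7.81 in BDL day 7 livers, against 8.17, 10.02, 12.001, 11.84 and 10.94 in BDL day 3 livers. The highest day 7 array lay just under the lowest day 3 array. The difference was -3.89 ± 0.72 (adjusted p = 0.00143), and sham day 7 arrays lay between 4.94 and 7.38. C4a, a complement gene, fell by 1.26 ± 0.29, the kinase Sik1 by 1.24 ± 0.20, and Nampt, of NAD salvage, by 1.21 ± 0.25. Serpina4-ps1 fell by 2.31 ± 0.63 (adjusted p = 0.0283), a call lost without any one of BDL day 7 replicates 2, 3, 4 and 5 or BDL day 3 replicates 3 and 5 (adjusted p up to 0.0824).

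**Figure D3:**
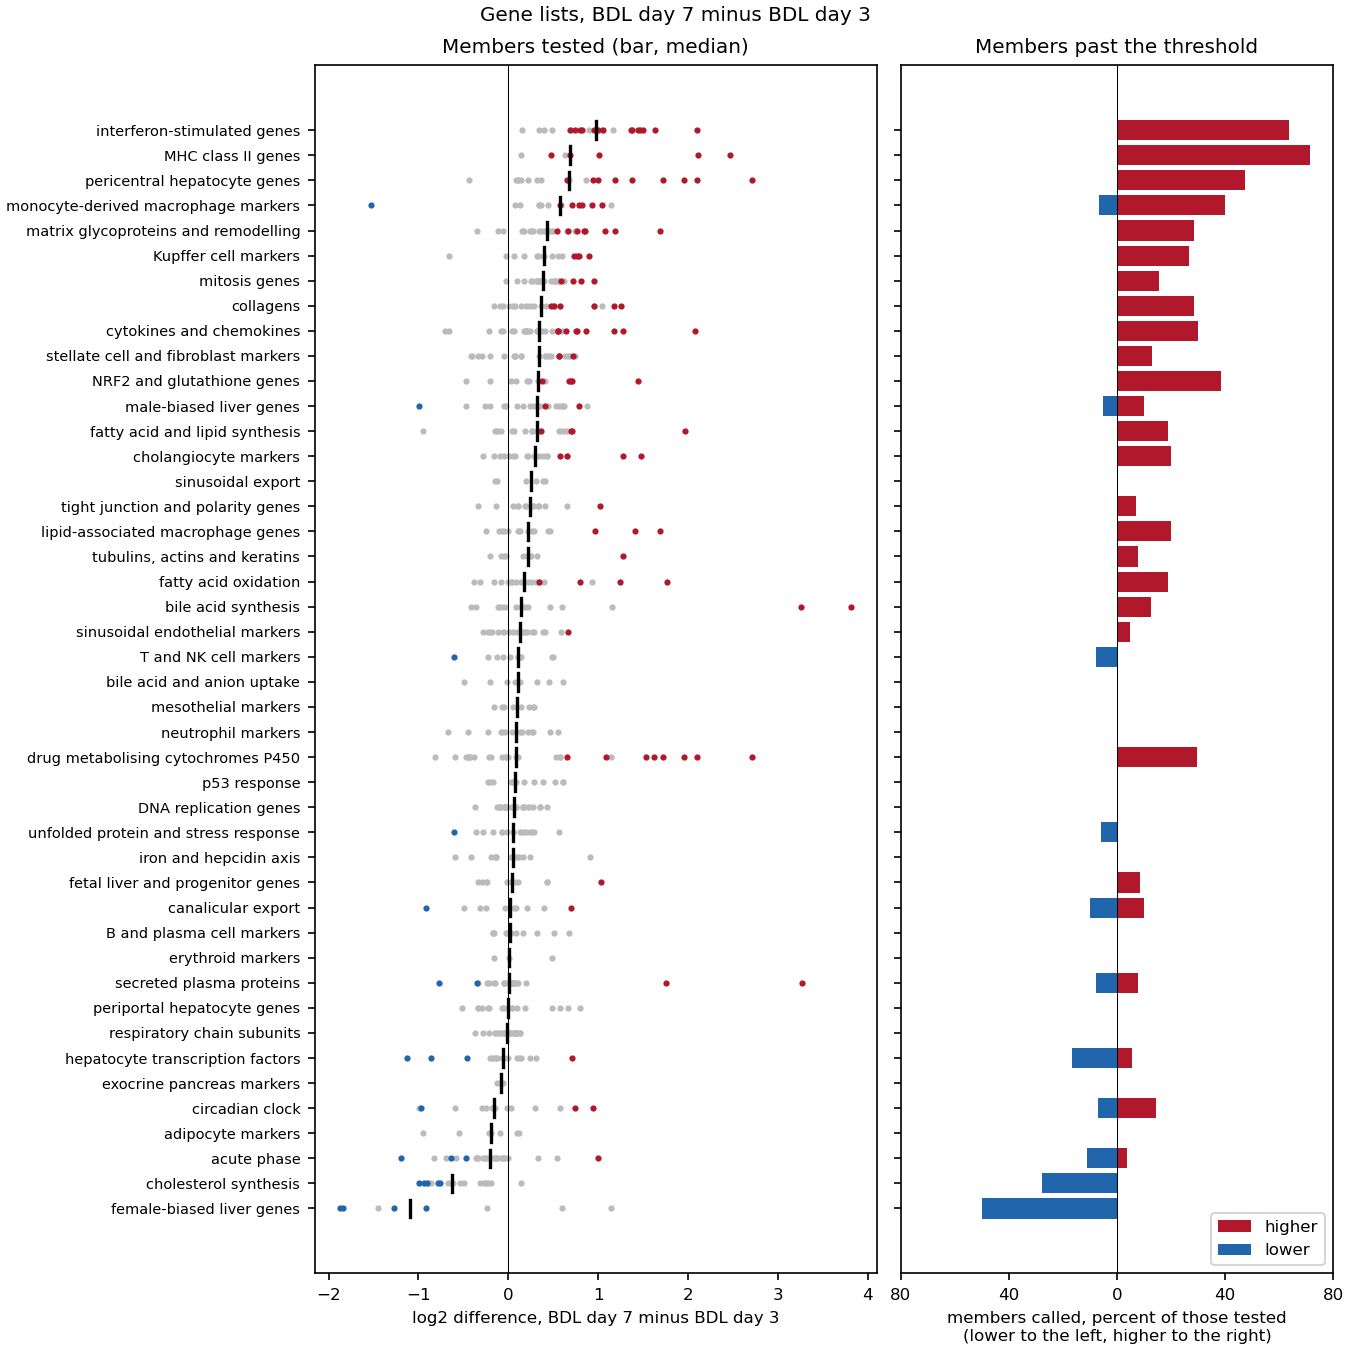
Each gene of 44 lists by its log2 difference, BDL day 7 minus BDL day 3 (left; black bars mark medians, red and blue mark genes that passed), and the percent of tested members that passed, higher to the right and lower to the left (right panel). Interferon-stimulated and MHC class II genes have the largest shares of rises, and female-biased and cholesterol synthesis genes the largest shares of falls.

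Interferon-stimulated genes rose in 14 of 22 tested (63.6%, against 4.6% of all genes) and none fell. All 22 differences were positive, with a median of 0.98. Between 11 and 16 passed when single arrays were left out, and 14 under each other scaling. Bst2, a membrane protein that tethers viruses, had 10.56, 10.87, 10.98, 10.77 and 11.13 in BDL day 7 livers, against 9.50, 9.81, 9.12, 9.31 and 8.42 in BDL day 3 livers. All day 7 arrays were higher, by 1.63 ± 0.28 on average (adjusted p = 0.000893). Isg15, a ubiquitin-like modifier, had 6.46, 6.58, 6.23, 5.48 and 7.06 in BDL day 7 livers, against 4.97, 5.13, 4.60, 5.28 and 4.34 in BDL day 3 livers. Its day 3 mean of 4.87 lay under the filter level of 5 and was not told apart from background, so the rise was at least 1.36, or 2.57-fold (adjusted p = 0.00222). These are the genes whose promoter windows are printed above. Oasl2 rose by 1.47 ± 0.22 and Cxcl9, a chemokine induced by interferon gamma, by 2.10 ± 0.38 with overlap. Neither of the windows of these genes held the core.

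Day 7 replicate 5 had the highest values of this group. The mean over the 22 genes was 7.47, 7.37, 7.61, 7.16 and 8.15 in BDL day 7 livers, against 6.53, 6.89, 6.46, 6.60 and 6.25 in BDL day 3 livers. For the guanylate-binding protein Gbp2b that array was at 7.76 and the other 4 at 5.20 to 5.89, and the difference of 0.71 ± 0.32 did not pass (adjusted p = 0.219). Gbp4 was at 6.85 in that array and at 4.25 to 5.65 in the other 4, and it did not pass without that array, without BDL day 7 replicate 3 or without BDL day 3 replicate 1 (adjusted p up to 0.112). Ly6c2, a monocyte marker, was at 7.09 in the same array and at 4.62 to 5.50 in the other 4, with an adjusted p of 0.0532. It passed without BDL day 7 replicate 2 or 4 (adjusted p down to 0.026).

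MHC class II genes, which present antigen and are expressed by dendritic cells, macrophages and B cells, rose in 5 of 7 tested (71.4%). Of all genes 4.6% rose. None of the 7 fell, and their median was 0.68. H2-Ab1 had 9.42, 9.47, 9.39, 9.67 and 10.08 in BDL day 7 livers, against 6.54, 7.23, 6.73, 7.78 and 7.45 in BDL day 3 livers. The gap between the groups exceeded the range within either, and the difference was 2.46 ± 0.30 (5.51-fold, adjusted p = 2e-05). H2-Aa had 7.86, 7.98, 7.75, 8.33 and 8.70 in BDL day 7 livers, against 5.66, 5.84, 6.00, 6.39 and 6.17 in BDL day 3 livers. Its difference was 2.11 ± 0.25 (adjusted p = 1.37e-05), again with no overlap. H2-Eb1 rose by 1.01 ± 0.20 and H2-DMa, which loads peptides, by 0.68 ± 0.20, a call lost without any one of BDL day 7 replicates 1, 3 and 5 or BDL day 3 replicates 1, 4 and 5 (adjusted p up to 0.116). Ciita, the master regulator of the class, rose by 0.47 ± 0.12 and was named after its values were seen. The count was 3 without BDL day 7 replicate 5 or BDL day 3 replicate 5. Over days 1, 3, 7 and 21 the mean of BDL livers was 6.68, 7.15, 9.61 and 10.89 for H2-Ab1.

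Cell types that carry these genes were followed by their markers. Of 15 markers of monocyte-derived macrophages 6 rose (40%) and 1 fell (6.67%), against 4.6% and 1.1% of all genes. Their list mean was 7.10 to 7.64 in BDL day 7 livers and 6.70 to 7.09 in BDL day 3 livers. Of 15 Kupffer cell markers 4 rose (26.7%). Their list mean was 9.04 to 9.49 in BDL day 7 livers and 8.50 to 9.19 in BDL day 3 livers. Of 12 B and plasma cell markers none passed. Of 13 T and NK cell markers 1 fell (7.69%), which was Cd28. Its means of 4.37 and 4.98 in BDL day 7 and BDL day 3 livers lay under the filter level. The part of cell numbers in the class II and interferon results was not tested.

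Single macrophage markers moved in both directions. Itgax, the integrin CD11c, rose by 0.93 ± 0.16, and Ms4a7 by at least 0.41, as its day 3 mean of 4.37 was under the filter level. Chil3, a chitinase-like protein of monocytes, fell by 1.53 ± 0.37 (adjusted p = 0.0112), with 6.73 to 7.94 in BDL day 7 livers and 7.33 to 9.39 in BDL day 3 livers. The count of monocyte-derived markers that rose was 3 without BDL day 3 replicate 1 or BDL day 7 replicate 5. Clec7a, the beta-glucan receptor dectin-1, had 8.38, 8.32, 8.52, 8.34 and 8.78 in BDL day 7 livers, against 5.92, 6.70, 6.29, 6.98 and 6.30 in BDL day 3 livers. It rose by 2.03 ± 0.26 (4.08-fold, adjusted p = 2.93e-05), without overlap. Among the listed Kupffer cell markers 13 differences were positive and 2 negative, the lowest being -0.66, which did not pass. The 4 that rose were Cd5l (0.90 ± 0.23), C6 (0.79 ± 0.17), the folate receptor Folr2 (0.77 ± 0.23) and the growth factor receptor Csf1r (0.73 ± 0.22). C6 is the same gene and value counted among the male-biased genes. Leaving out single arrays took that count to 1 (BDL day 7 replicate 3 or 5, BDL day 3 replicate 1 or 5) or 2 (BDL day 7 replicate 1 or 4, BDL day 3 replicate 2 or 3), and median centring to 2.

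Of 15 genes of lipid-associated macrophages 3 rose (20%, against 4.6% of all genes), and the same count of 3 was found whichever array was left out. Differences were positive in 10 and negative in 5, with a median of 0.22 and a lowest value of -0.25. The 3 named next are those that rose. Mmp12, macrophage elastase, had 7.94, 6.91, 7.55, 7.78 and 7.66 in BDL day 7 livers, against 5.74, 6.66, 5.54, 5.82 and 5.62 in BDL day 3 livers. Its difference was 1.69 ± 0.19 (adjusted p = 9.89e-06), with day 3 replicate 2 nearest to day 7. Lpl, lipoprotein lipase, rose by 1.41 ± 0.28, or by 0.90 with the rows of the gene averaged, and the fatty acid transporter Cd36 rose by 0.97 ± 0.19. Neutrophil markers did not pass in any of 14, with list means of 5.82 to 6.04 in BDL day 7 livers and 5.78 to 6.08 in BDL day 3 livers.

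Cytokines and chemokines rose in 9 of 30 (30%, against 4.6% of all genes), with none falling and a median of 0.35. Il1b had 6.87, 7.32, 6.81, 7.16 and 7.34 in BDL day 7 livers, against 5.58, 5.58, 4.20, 5.10 and 4.64 in BDL day 3 livers. The groups did not overlap and the difference was 2.08 ± 0.33 (adjusted p = 0.00044). Ccl2, which attracts monocytes, rose by 1.28 ± 0.25, Cxcl16 by 1.18 ± 0.20 and Tnf by 0.87 ± 0.16.

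The acute phase response, made by hepatocytes under inflammatory cytokines, was followed in 27 genes. Of these 1 rose (3.70%) and 3 fell (11.1%), against 4.6% and 1.1% of all genes, and 24 differences were negative, with a median of -0.21. Apcs, serum amyloid P, fell by 1.19 ± 0.24 (adjusted p = 0.00253), and Itih3 (-0.64 ± 0.12) and Orm1 (-0.47 ± 0.12), named after their values were seen, fell too. The count of falls was 6 without BDL day 3 replicate 2 and 5 under median centring. Cd14, the co-receptor for lipopolysaccharide, rose by 1.00 ± 0.29 (adjusted p = 0.0361), a call lost without any one of BDL day 7 replicates 3, 4 and 5 or BDL day 3 replicates 1, 2, 3 and 5 (adjusted p up to 0.101). Saa2 differed by -0.70 ± 0.46, Saa3 by -0.58 ± 0.36 and Lcn2 by -0.08 ± 0.37, and none of these 3 passed.

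**Figure D4:**
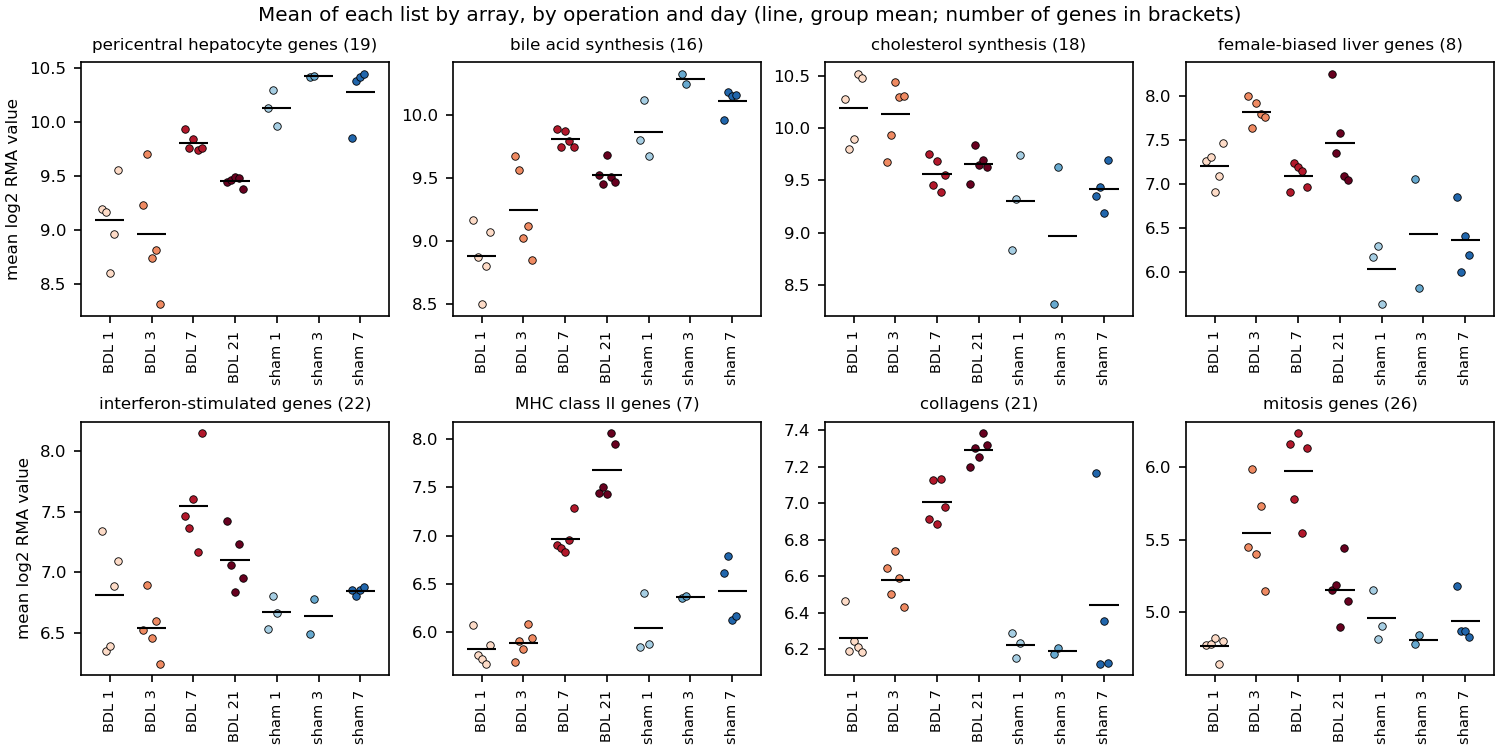
Mean log2 value over the tested members of 8 lists in each of the 29 arrays, for BDL days 1, 3, 7 and 21 and sham days 1, 3 and 7; black lines mark group means. BDL day 7 arrays do not overlap BDL day 3 arrays for 6 of these lists, while cholesterol synthesis and mitosis genes overlap.

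Collagens rose in 6 of 21 and other matrix genes in 8 of 28 (28.6% each, against 4.6% of all genes). None fell, and the medians were 0.37 and 0.43. Col3a1, a fibrillar collagen, had 9.15, 9.71, 9.28, 9.63 and 9.31 in BDL day 7 livers, against 8.33, 8.15, 8.59, 8.33 and 7.43 in BDL day 3 livers. It rose by 1.25 ± 0.35 without overlap (adjusted p = 0.0299), a call lost without any one of BDL day 7 replicates 2, 3, 4 and 5 or BDL day 3 replicate 5 (adjusted p up to 0.106). Col14a1 rose by 1.17 ± 0.21 and Col6a3 by 0.96 ± 0.22. The main scar collagens Col1a1 (1.04 ± 0.48, adjusted p = 0.224) and Col1a2 (0.95 ± 0.39, adjusted p = 0.162) did not pass in the fit over all groups. They passed when only the 2 groups were fitted. Among sham day 7 livers Col1a1 was at 10.43 in replicate 1 and at 6.16 in the lowest array, and the part of that array in the fit over all groups was not tested.

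Among matrix glycoproteins Postn, periostin, rose by 1.19 ± 0.26, Lum, lumican, by 1.08 ± 0.25 and Tnc, tenascin C, by 0.86 ± 0.25. The last call was lost without any one of BDL day 7 replicates 1, 3 and 4 or BDL day 3 replicates 3, 4 and 5 (adjusted p up to 0.106). Timp1, an inhibitor of matrix proteases, differed by 0.65 ± 0.23 and did not pass (adjusted p = 0.103). The count of 8 became 5 without BDL day 7 replicate 4 or BDL day 3 replicate 5, and 5 under median centring. Of 23 stellate cell and fibroblast markers 3 rose, and 1 without BDL day 3 replicate 5. These were Reln (0.72 ± 0.17), a marker of quiescent stellate cells, and Cnn2 (0.57 ± 0.15) and Cd34 (0.56 ± 0.12), named after their values were seen. Acta2, smooth muscle actin of activated stellate cells, was at 8.91 ± 0.39 in BDL day 7 livers and 8.24 ± 0.39 in BDL day 3 livers (SD, n = 5 each), with an adjusted p of 0.131. For Pdgfrb the difference was 0.75 ± 0.23 (adjusted p = 0.0529), and it passed without any one of BDL day 7 replicates 1 and 2 and BDL day 3 replicate 3.

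Duct markers gave a mixed result, with 4 of 20 higher (20%, against 4.6% of all genes), none lower and a median of 0.30. The epithelial factor Elf3 had 6.58, 7.19, 6.96, 6.37 and 7.50 in BDL day 7 livers, against 5.33, 5.92, 5.17, 5.59 and 5.23 in BDL day 3 livers. It rose by 1.47 ± 0.30 without overlap (adjusted p = 0.00297). The keratin Krt23 rose by at least 0.96, its day 3 mean of 4.68 being under the filter level. Cftr, the chloride channel of duct cells, was under that level in both groups, with means of 4.94 in BDL day 7 livers and 4.29 in BDL day 3 livers. Bicc1 (0.58 ± 0.18) was named after its values were seen. The markers usually used to count ducts did not pass: Krt19 differed by -0.16 ± 0.12, Krt7 by 0.05 ± 0.19, Sox9 by -0.28 ± 0.23 and Epcam by 0.29 ± 0.21. The Krt7 difference turned negative under median centring and without BDL day 7 replicate 2 or 4.

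Cell division genes were followed in 2 lists, whose difference was not tested. Of 26 mitosis genes 4 rose (15.4%, against 4.6% of all genes) and 25 of 26 differences were positive, with a median of 0.38. Of 26 DNA replication genes none passed, with a median of 0.06. Ccnb2, cyclin B2, had 7.48, 6.84, 7.67, 6.72 and 7.12 in BDL day 7 livers, against 6.56, 6.62, 5.84, 6.63 and 5.38 in BDL day 3 livers. It rose by 0.96 ± 0.21 (adjusted p = 0.00648), with a narrow gap between the groups. The mitotic kinesin Kif20a rose by 0.72 ± 0.16, Prc1, of the central spindle, by 0.81 ± 0.21 and Racgap1, named after its values were seen, by 0.58 ± 0.16. The count was 12 without BDL day 3 replicate 2, 8 without BDL day 7 replicate 4 and 7 without BDL day 3 replicate 4, and 2 without BDL day 7 replicate 3 or 5 or BDL day 3 replicate 3 or 5. Mki67 (0.37 ± 0.22), Top2a (0.62 ± 0.25), Ccnd1 (0.03 ± 0.26) and Cdkn1a (-0.22 ± 0.28) did not pass. Top2a passed without BDL day 3 replicate 2, and the Ccnd1 difference turned negative under loess and centring. None of 14 genes of the p53 response passed.

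NRF2 targets and glutathione genes, which answer oxidative stress, rose in 5 of 13 (38.5%, against 4.6% of all genes) with a median of 0.33. Gstm3, a glutathione transferase, had 12.44, 12.22, 12.76, 12.39 and 12.75 in BDL day 7 livers, against 11.83, 12.01, 11.50, 11.14 and 8.86 in BDL day 3 livers. Day 3 replicate 5 was far below the rest, and without it the difference was 0.89 rather than 1.44 and did not pass. The Gstm3 call was lost in 8 of the 10 fits that left out 1 array (adjusted p up to 0.159). It held only without BDL day 3 replicate 1 or 2, and it was also lost in 4 of the 9 other alternatives. Gstm4 (0.71 ± 0.17), Me1, Ugdh (0.68 ± 0.18) and Srxn1 (0.38 ± 0.10), the last named after its values were seen, made up the rest. The count was 2 without BDL day 7 replicate 2 or 3 or BDL day 3 replicate 5, and 3 without BDL day 7 replicate 1 or 5 or under median centring.

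Of 14 circadian clock genes 2 rose and 1 fell. Cry1, a repressor of the clock, had 6.12, 5.68, 5.67, 5.77 and 5.68 in BDL day 7 livers, against 6.56, 6.89, 6.87, 6.62 and 6.85 in BDL day 3 livers. It fell by 0.97 ± 0.12 (adjusted p = 2e-05), with no overlap. Nr1d1, the repressor REV-ERB alpha, rose by 0.95 ± 0.21, and Bhlhe41 by at least 0.24 from a day 3 mean under the filter level. The count of rises was 1 without any one of BDL day 7 replicates 2, 3 and 4 or BDL day 3 replicates 1, 2, 3 and 4, and 1 under median centring. No label states the hour at which livers were taken, and its part in these values was not tested. In the unfolded protein response 1 of 17 genes fell (5.88%), Herpud1 (-0.60 ± 0.16), against 1.1% of all genes. Of 12 fetal liver genes 1 rose (8.33%), Spink1, against 4.6% of all genes. Both genes were named after their values were seen. The first count was 0 without BDL day 7 replicate 2, BDL day 3 replicate 1 or BDL day 3 replicate 5 and 2 without BDL day 3 replicate 2, and the second was 0 without BDL day 3 replicate 5 and 2 without BDL day 3 replicate 2. Respiratory chain subunits (26 tested) and genes of iron handling (14 tested) had no member that passed. Tjp3, of tight junctions (1.02 ± 0.18), and Cdh5, of endothelium (0.66 ± 0.17), were the single rises of lists of 14 and 21. These shares of 7.14% and 4.76% lay near the 4.6% of all genes tested that rose. The Cdh5 call was lost without any one of BDL day 7 replicates 3 and 5 or BDL day 3 replicates 1 and 5 (adjusted p up to 0.068).

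Whether the step between the days differed from that in sham livers was tested directly. Of 14699 genes 8 passed (0.0544%), 6 with a positive difference (ligated minus sham step) and 2 with a negative one. Cyp8b1 differed by 3.26 ± 0.36 in ligated livers and by -0.47 ± 0.50 in sham livers, a difference of 3.73 ± 0.62 (adjusted p = 0.00771), which did not pass when only the 4 groups were fitted. Gabbr2, a GABA-B receptor subunit, had 8.21, 7.89, 7.54, 8.05 and 8.02 in BDL day 7 livers, against 9.14, 8.72, 9.31, 8.99 and 9.61 in BDL day 3 livers. Its sham values were 8.95, 8.35, 8.46 and 8.37 at day 7 and 7.61 and 7.93 at day 3, so the steps had opposite signs, with a difference of -1.98 ± 0.30 (adjusted p = 0.00661). Myo1f, a myosin of leukocytes, also stepped in opposite directions, by 0.87 ± 0.13 in ligated and -0.47 ± 0.18 in sham livers (adjusted p = 0.00771 for the difference). Gabbr2 and Myo1f passed in all 16 fits that left out 1 array, as did Cyp8b1.

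H2-Ab1 (2.60 ± 0.52, adjusted p = 0.0458), H2-Aa (2.20 ± 0.42, adjusted p = 0.0421), Mest (1.38 ± 0.27, adjusted p = 0.0421) and Cry1 (-1.08 ± 0.20, adjusted p = 0.0406) passed narrowly. They passed in 4, 5, 4 and 7 of the 16 such fits. The eighth was the MHC class I gene H2-Q1, named after its values were seen, which passed in 5. The step of Cyp7a1 differed by 4.31 ± 1.26 and that of Car3 by 3.94 ± 1.05, and neither passed (adjusted p = 0.243 and 0.188). The count of 8 was 50 without sham day 3 replicate 1 and 21 without sham day 3 replicate 2, in each of which a single sham day 3 array is assumed to vary like the other groups. It was 34 without BDL day 3 replicate 2, 4 without BDL day 7 replicate 1 or 2, and 3 without sham day 7 replicate 3 or 4, BDL day 7 replicate 3 or 5 or BDL day 3 replicate 3 or 5.

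**Figure D5:**
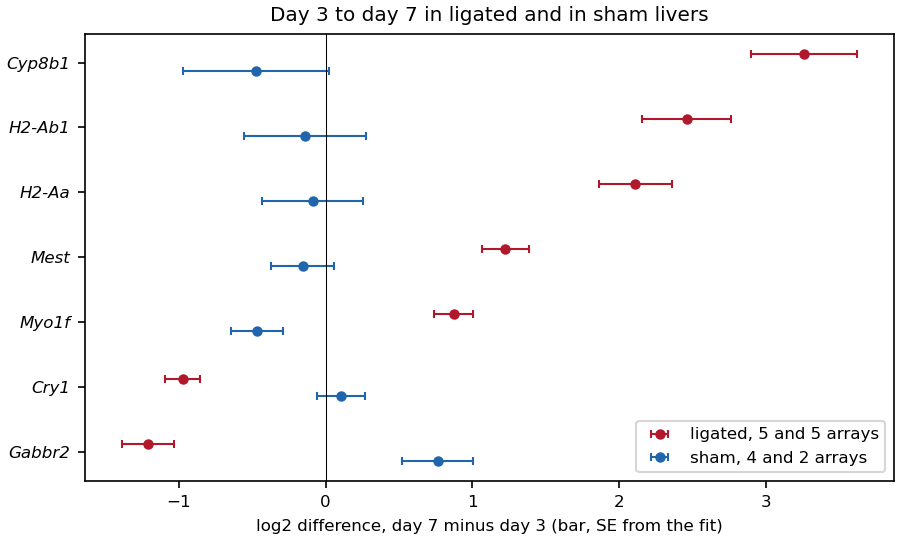
Log2 difference, day 7 minus day 3, in ligated livers (red, 5 and 5 arrays) and in sham livers (blue, 4 and 2 arrays) for 7 genes whose steps differed at an adjusted p under 0.05; bars are SE from the fit. Cyp8b1, H2-Ab1, H2-Aa, Mest and Myo1f rose in ligated livers and Cry1 and Gabbr2 fell, while the sham steps lie nearer to 0.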

How the data were processed

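Liver RNA of 29 mice was hybridised to 1-colour Affymetrix arrays. The deposited values are log2 expression values that the authors made with RMA in oligo 1.52.0, per the submitters' processing notes; which arrays were normalized together, any batch and the genome build were not stated. Another mouse array is named in the labels' protocols than the one whose annotation matches the row identifiers, and oligo dT priming, and gene names follow that annotation. Of 41345 rows, 25335 had an annotation, 23521 a single gene symbol, 1814 several and 16010 none; symbols were updated through the RefSeq GRCm38.p6 table, which held 23328 of them, and the row with the highest mean was kept per gene (22180 genes).

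Genes with a log2 value over 5 in at least 3 arrays (14699) were fitted with limma 3.58.1 in R 4.3.3 (lmFit and eBayes, 1 mean per group over all 29 arrays), with Benjamini-Hochberg adjustment over all of them. The contrasts were BDL day 7 minus BDL day 3, sham day 7 minus sham day 3, and the difference of these steps. Intensities carry no count depth, and the number of arrays limits the precision; p-values measure the spread between animals as far as titles tell them apart. The fit was tested on simulated data before use.

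The members and gene lists were chosen with earlier results of these data known, as were the promoter motifs. Lists are described by counts and medians only. Named genes were the 15 largest rises and 15 largest falls that passed without overlap of arrays, up to 4 members of each list with the largest absolute difference, a fixed set, the 5 largest step differences in each direction, and the most variable genes; predicted genes and some multigene segments were left out. Genes outside that rule are marked in the text. Alternatives were no filter, a stricter filter (over 6 in at least 5 arrays), averaged rows, cyclic loess, median centring, fewer arrays in the fit, trend and robust eBayes, array weights and each array left out in turn.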

Additional observations from a re-analysis of the deposited data

Results flagged for a closer look

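In groups of 4 or 5 arrays, 44 of 525 sets of values (8.38%) held an array farther from the others than a 95% limit for such groups allows. For sets taken without selection chance gives about 1 in 20. The sets here were reported genes, chosen in part as the most variable, and lists that share members, so that rate is not a measure for them. All values are log2, and values of a gene group are means over its members tested. Sham day 7 replicate 1 held 14 of them. It was at 11.63 for Slc10a1, 6.05 for Vnn1, 9.24 for Cyp17a1, 8.57 for Cxcl9, 7.74 for Col6a3, 9.16 for Acta2, 5.37 for Kif20a, 11.11 for Cyp4a14 and 7.12 for Tjp3. Its means were 9.96 for bile acid synthesis, 9.85 for pericentral genes, 8.36 for the unfolded protein response, 6.16 for DNA replication and 5.18 for mitosis. Sham day 7 replicate 3 was at 9.22 for fatty acid oxidation and 5.50 for exocrine pancreas markers, and sham day 7 replicate 4 at 9.81 for Cyp7a1 and 5.95 for Mest.

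Among BDL day 7 arrays, replicate 5 was at 9.02 for Cyp7b1, 7.76 for Gbp2b and 7.94 for Chil3, with means of 7.28 for MHC class II genes and 8.42 for tubulins, actins and keratins. Replicate 2 was at 10.22 for Cebpa, 7.77 for sinusoidal endothelial markers and 9.15 for respiratory chain subunits. Replicate 1 was at 12.84 for Mup3 and 6.12 for Cry1. Replicate 4 was at 5.41 for T and NK cell markers and 8.98 for iron genes.

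Among BDL day 3 arrays, replicate 1 was at 10.85 for Cyp17a1, 3.22 for Gbp4, 8.25 for Cyp2b10 and 5.87 for mesothelial markers. Replicate 2 was at 9.90 for Ehhadh, 10.40 for Apcs, 8.98 for Nrbp2, 6.66 for Mmp12 and 8.29 for the unfolded protein response. Replicate 5 was at 3.86 for Ms4a7, 6.82 for Reln, 5.29 for Bhlhe41, 8.86 for Gstm3 and 6.11 for Gstm4.

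The step from day 3 to day 7 differed between ligated and sham livers in limma, by 3.73 for Cyp8b1, -1.98 for Gabbr2, 2.60 for H2-Ab1, 2.20 for H2-Aa, 1.34 for Myo1f, -1.08 for Cry1 and 1.38 for Mest.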

How the results depend on the processing

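The direction of 95 reported genes that passed held under all alternatives in which they were tested. Of the 95, 67 passed under each of the 19 alternatives that tested them, and of 36 that did not pass, 21 never did. The stricter filter kept only 88 of the 95 for testing. The 837 genes that differed between BDL day 7 and BDL day 3 became 1845 with array weights and 472 to 964 with single arrays left out. The 8 step differences became 22 with only the groups compared, 28 without the day 1 arrays and 3 to 50 with single arrays left out. The sham count of 0 ran between 0 and 35 in such fits, the highest without sham day 3 replicate 1. The cause of these moves was not tested. Signs turned only for genes that did not pass: Alb to -0.038, Krt7 to -0.030 and Ccnd1 to -0.052 with median centring, Ccnd1 to -0.028 with loess and -0.071 with array weights. With single arrays left out, the difference ran between -0.11 and 0.26 for Abcb11, -0.048 and 0.12 for Krt7, -0.20 and 0.17 for Ccnd1, -0.92 and 0.32 for Cyp4a14, and -0.85 and 0.28 for Cyp2b10. Gene list counts moved most for cholesterol synthesis (5 falls, 12 with array weights and 1 without BDL day 3 replicate 5) and mitosis (4 rises, 13 with array weights). The median of all genes shifted from 0.03 to -0.00 with loess and -0.05 with centring. No paired analysis was possible because replicate numbers were given in accession order and the titles carry a different number for each animal. Values near the level of 5 cannot be told apart from background.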
